A study of Rattus norvegicus with 24 samples.

Results

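The data compared here are the responses of rat hepatocytes to BZP (benzylpiperazine) and MDBP (methylenedioxybenzylpiperazine), 2 stimulant designer drugs built on a piperazine ring that carries a benzyl group. MDBP differs from BZP by a methylenedioxy bridge on the benzyl ring. Samples were taken by their titles: those treated with BZP or MDBP and the controls that name them, which gave 12 of the 24 arrays of the series and 6 of its 12 pairs. The cells were primary rat hepatocytes in sandwich culture, that is, covered above and below by matrix, and exposure lasted 24 h. BZP was given at 625 µM and MDBP at 467 µM, so the concentrations differed. The labels call both the EC20, a concentration defined by a 20 percent effect, so the comparison is at a matched effect and not at a matched dose. Each compound had 3 treated arrays and 3 control arrays with 0.1 percent DMSO, and the 2 compounds shared no control array. The labels give no strain, age or sex of the animals, and they do not say whether the 3 samples of a group came from separate animals or cultures. The p-values below therefore measure the scatter among these samples alone, part or all of which may be technical.

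The questions were which genes respond to both compounds and which respond differently once the bridge is present. Hepatocytes clear such drugs with cytochrome P450 enzymes, which can open a methylenedioxy bridge to a catechol, and with conjugating enzymes. They also make cholesterol under the control of SREBP transcription factors, turn it into bile acids, and break down amino acids and fatty acids. When amino acids run short or proteins fold poorly, the transcription factor ATF4 switches on genes of amino acid synthesis and uptake.

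Values are log2 expression values made by RMA. A change is the treated value minus that of the control named for it, and the joint change is the mean of the BZP and MDBP changes. All changes and differences below are in log2 units, and ± gives the SE of the fit. The tests come from limma fitted to all 24 arrays, with 12 pair terms and 4 drug terms and with Benjamini-Hochberg adjustment over 31042 probe sets, and a change was called at an adjusted p under 0.05. Array medians of the 12 arrays lay between 4.454 and 4.515. Of 57 control probe sets, limma called 0 for the joint change, with 1 at an unadjusted p under 0.05. The 12 control arrays of the series were clustered by their correlations and cut into 5 sets, a number given to the clustering. These sets are called preparations here, but no label names them or says that they were cell preparations. Control arrays correlated at 0.9943 or more within a set and at 0.9919 or less between sets. The first pairs of both compounds lay in 1 preparation and the third pairs of both in another, while the second pair of BZP and that of MDBP lay in different ones.

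BZP and MDBP moved genes in the same direction. The joint change was called for 5495 probe sets (17.7%), 3078 of them higher (9.92%) and 2417 lower (7.79%). Taking for each gene its probe set with the highest mean, 3386 of 14217 genes were called (23.8%), 2001 higher (14.1%) and 1385 lower (9.74%). Most changes were small: 221 genes (1.55%) were called and moved at least 2-fold, 57 higher (0.401%) and 164 lower (1.15%). Of the 3386 genes, 3382 had the same sign with both compounds and 2649 (78.2%) in all 6 pairs, a pattern that 24.3% of all genes showed. The call is made on the mean of both compounds and so favours 1 sign, and nothing is read from these shares. Without the pair terms 774 probe sets were called, and the counts of the gene lists below fell with them. Cholesterol synthesis went from 15 rises to 9, amino acid breakdown from 40 falls to 13 and the ATF4 list from 19 rises to 6. Other lists lost nearly all calls. Aminoacyl-tRNA synthetases went from 10 rises to 1, oxidative phosphorylation from 18 falls to 1 and hepatocyte proteins from 21 falls to 2. The p53 list went from 11 rises to 0 and the aryl hydrocarbon receptor list from 4 to 0. With 1 value for each preparation 3031 probe sets were called.

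Each compound taken alone gave fewer calls. With BZP, 1795 genes were called (12.6%), 947 higher (6.66%) and 848 lower (5.96%). With MDBP, 1383 were called (9.73%), 665 higher (4.68%) and 718 lower (5.05%). Both compounds called 1005 genes, which is 56.0% of the BZP calls and 72.7% of the MDBP calls. Of these, 459 rose with both, 546 fell with both and 0 moved in opposite directions. At an unadjusted p under 0.05 in limma with both compounds there were 2418 genes, of which 5 moved in opposite directions. A call with 1 compound alone does not show a difference. Of the 790 genes called with BZP and not with MDBP, 763 had the same sign with MDBP. Of the 378 called with MDBP and not with BZP, 356 had the same sign with BZP. These shares were not counted over all genes, so nothing is read from them. In both sets 0 were called for the difference, but 0 of 31042 probe sets were called at all, so this count tells nothing about them. The counts of single compounds leaned on single pairs. In probe sets, BZP called 2867 (9.24%), or 1461 without the third pair. MDBP called 2167 (6.98%), or 959 without the second pair and 821 without the third.

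**Figure D1:**
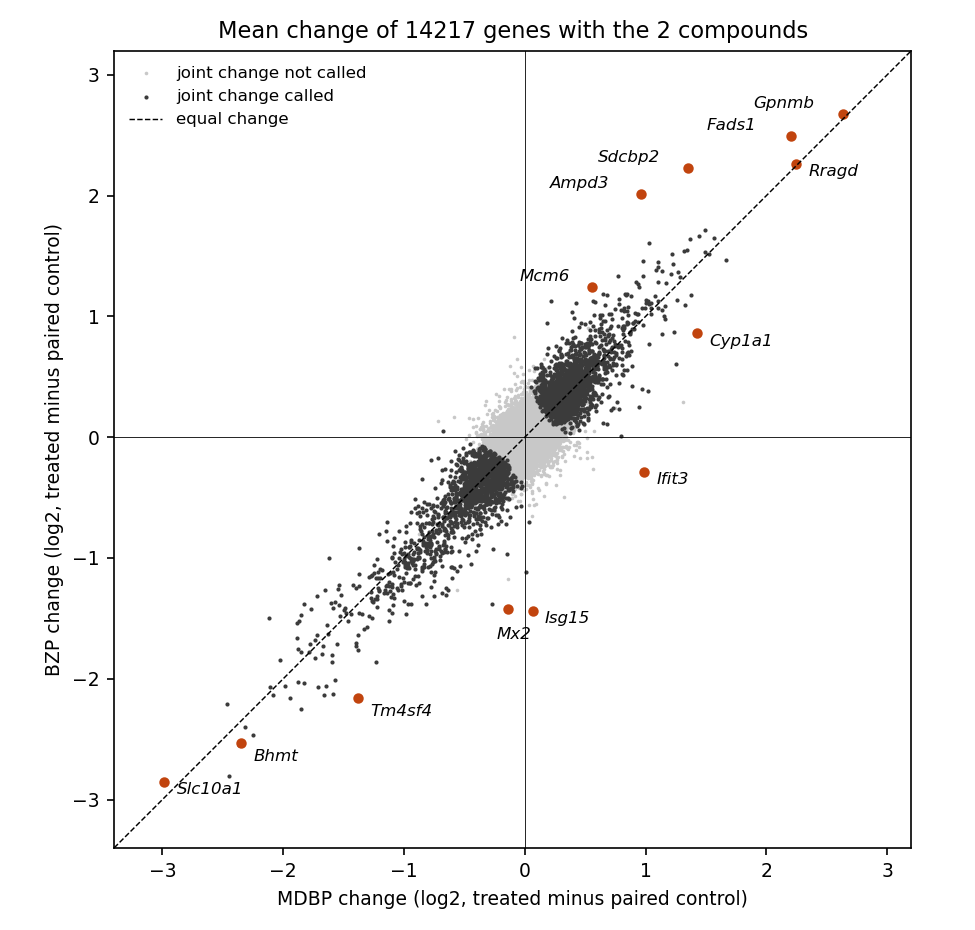
Mean change of 14217 genes with MDBP (x axis) and BZP (y axis), both as log2 of treated minus paired control over 3 pairs. Dark points are genes called for the joint change, the dashed line marks equal change, and the cloud follows that line with the correlation of 0.857 across genes, while the labelled interferon-response genes Isg15, Mx2 and Ifit3 lie below it.

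Correlations between the compounds spanned those between pairs of 1 compound. Across genes the mean changes correlated at r = 0.857, or at 0.901 over the 8608 genes whose mean log2 level was 5 or more. Genes are not independent replicates, so this is a description. Between single pairs, r across genes was 0.48 to 0.61 within BZP, 0.477 to 0.69 within MDBP and 0.383 to 0.796 between the compounds. The highest value, 0.796, joined the third pairs of BZP and MDBP, which share a preparation. The lowest, 0.383, joined the third pair of BZP and the first of MDBP. The spread of change across genes was 0.323 (SD) with BZP and 0.295 with MDBP, and among genes called for the joint change 61.4% moved further with BZP.

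**Figure D2:**
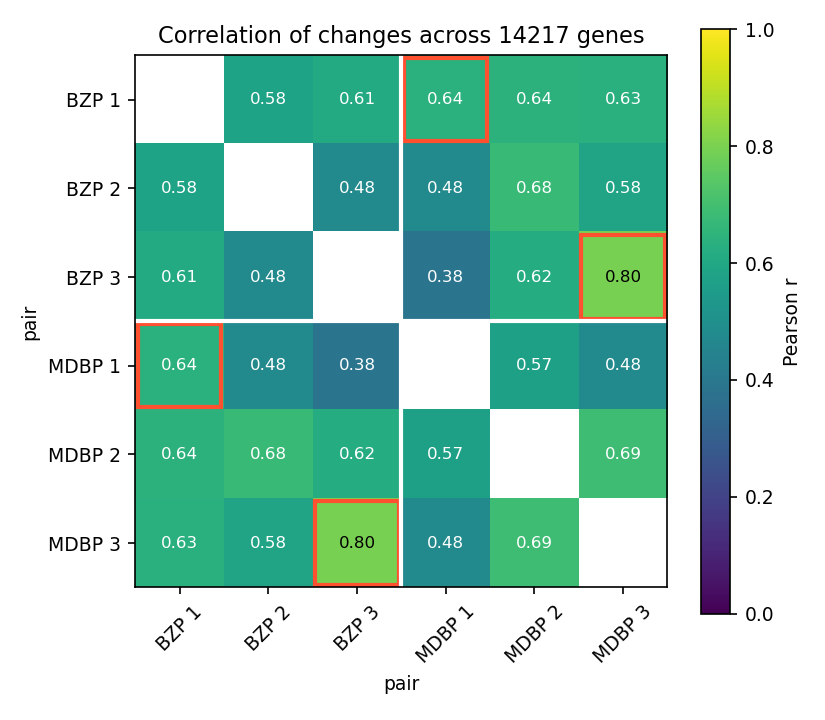
Pearson correlation, across 14217 genes, between the changes of the 6 pairs. White lines separate the compounds, red frames mark pairs of the same preparation, and values between the compounds (0.383 to 0.796) span those within BZP (0.48 to 0.61) and within MDBP (0.477 to 0.69).

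No gene passed the test for an effect of the bridge. For BZP change minus MDBP change, the 1 pair of compounds compared here, limma called 0 of 31042 probe sets (0%), with 1150 (3.7%) at an unadjusted p under 0.05. The smallest adjusted p was 1. The count stayed at 0 in all 14 alternative fits. This does not show that the compounds act alike, so the intervals are given. The 95% interval of the difference reached 0.335 to either side of the estimate in the median gene. It lay wholly within 0.5 of 0 (about 1.4-fold) for 9152 genes (64.4%), and within 1 of 0 (2-fold) for 14041 (98.8%). Among the genes called for the joint change, 1896 (56.0%) met the narrower limit and 3284 (97.0%) the wider one. In simulated arrays of the same size, this test recovered 62% of planted differences of 1 and 2% of planted differences of 0.5 on the log2 scale. The simulation shuffled the spreads among genes, so these shares are averages and do not hold for each gene.

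The strongest shared rises included lysosomal and lipid genes. Gpnmb, a glycoprotein of lysosomes and melanosomes, rose by 2.66 ± 0.12 (SE, n = 6 pairs; 6.31-fold; adjusted p = 9.67e-09). Its log2 level was 9.91, 9.91 and 9.66 with BZP against 7.32, 7.15 and 6.98 in the paired controls, in the order of the pairs. It was 9.62, 9.59 and 9.55 with MDBP against 7.50, 6.61 and 6.74. Treated and control arrays stood far apart with both compounds, and the difference between compounds was 0.038 (95% interval -0.48 to 0.55). Rragd, a Rag GTPase that signals nutrient supply at the lysosome, changed by 2.27 with BZP and 2.25 with MDBP. Its log2 level was 6.29, 6.16 and 5.60 with BZP against 4.02, 4.26 and 2.96 in the paired controls, and 6.07, 5.83 and 5.86 with MDBP against 3.78, 3.90 and 3.35, again with no overlap. The control levels of Rragd all lay below the array medians, which limits how exactly its change is known. Fads1, the delta-5 fatty acid desaturase, rose by 2.35 ± 0.18 jointly. Its BZP changes were 2.96, 3.04 and 1.47, and its MDBP changes were 2.58, 2.27 and 1.78. The third pair, in which Fads1 was already high in the controls (7.11 and 6.58), gave the smallest rise with both compounds.

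The other large rises covered varied functions. Sdcbp2, a syntenin-family scaffold protein, changed by 2.23 with BZP and 1.35 with MDBP. Ndrg1, a gene of stress and hypoxia responses, rose by 1.61 ± 0.18, from 0.85 in the first BZP pair to 2.49 in the third, but by 0.94 with its probe sets averaged. Rab30, a Golgi GTPase, rose by 1.51 ± 0.081. Ampd3, an AMP deaminase of purine metabolism, stood at 2.02 with BZP and 0.96 with MDBP, and its MDBP change alone was not called (adjusted p = 0.0524). Csrp3, a muscle LIM-domain protein, rose by 1.52 ± 0.21 and Uap1l1, related to an enzyme of amino sugar synthesis, by 1.57 ± 0.12, or 1.02 with its probe sets averaged. Of the 24 genes with the largest joint rises and falls, 24 were called with BZP alone and 23 with MDBP alone. The interval of the difference included 0 for 22 of them, Sdcbp2 and Ampd3 being the exceptions, and lay within 1 of 0 for 16 and within 0.5 for 0.

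**Figure D3:**
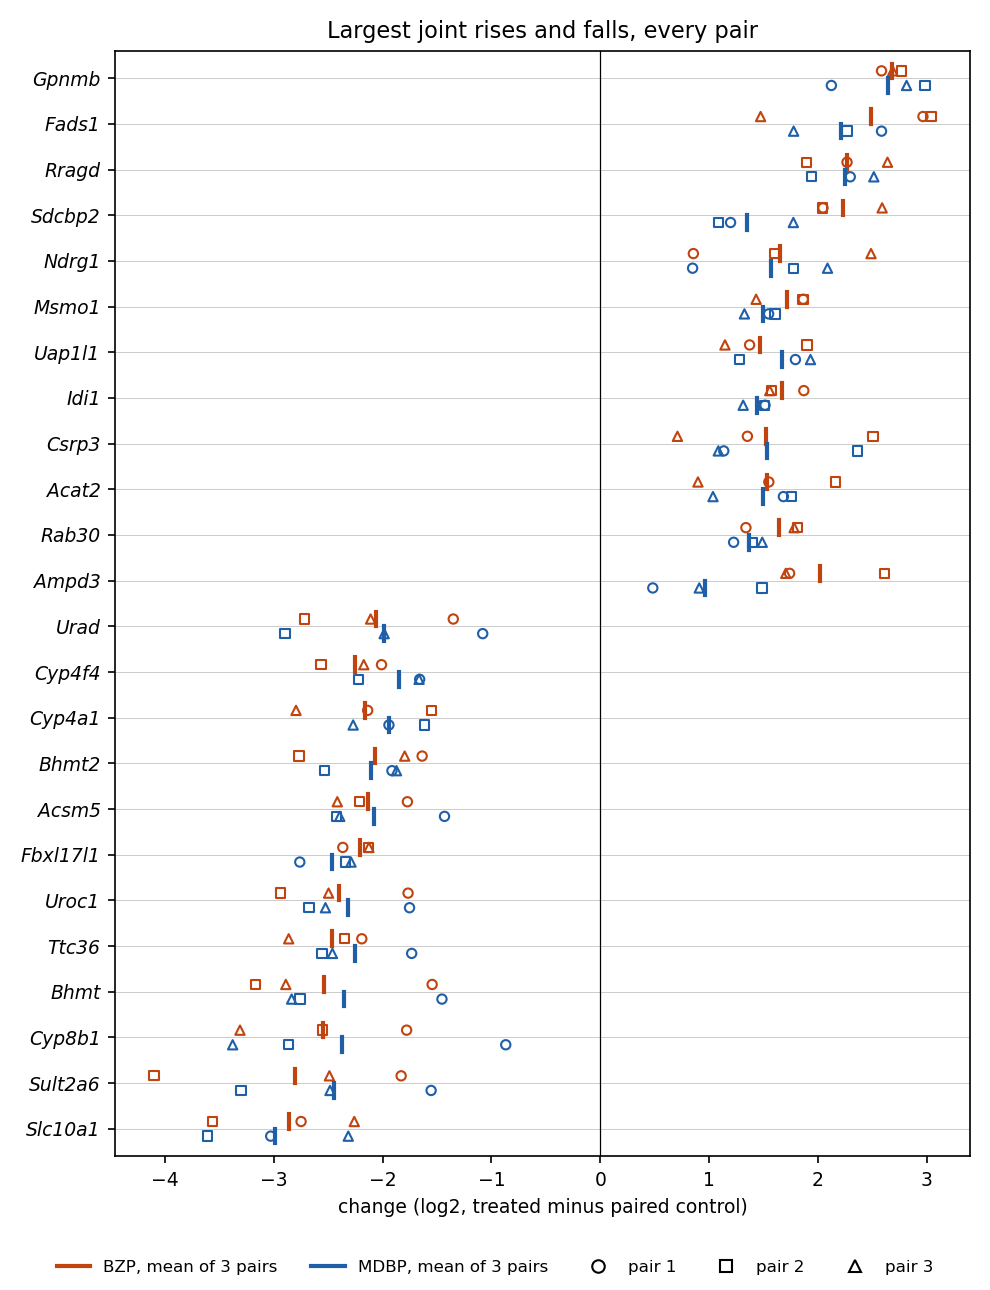
Change (log2, treated minus paired control) of the 12 largest joint rises and 12 largest joint falls, with each pair as an open symbol and the mean of 3 pairs as a bar, BZP in orange and MDBP in blue. All 6 symbols of a gene lie on the same side of 0, which the choice of genes required, and Sdcbp2 and Ampd3 show BZP above MDBP in every pair.

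Cholesterol synthesis genes rose with both compounds. Of 17 measured enzymes, 15 rose and 0 fell in the joint change, 13 rose with BZP alone and 12 with MDBP alone. The list median was 0.721, against 0.00852 over all genes, with 0.773 for BZP and 0.67 for MDBP. Msmo1, a sterol methyl oxidase, rose by 1.61 ± 0.092 (3.04-fold; adjusted p = 3.23e-08). Its log2 level was 10.35, 11.11 and 11.09 with BZP against 8.49, 9.25 and 9.66 in the paired controls, and 10.13, 11.24 and 10.91 with MDBP against 8.58, 9.64 and 9.59. Treated and control arrays did not overlap, although the control levels ran over more than 1 log2 unit. Idi1, the isoprenoid isomerase, changed by 1.67 with BZP and 1.44 with MDBP. Acat2, at the entry of the pathway, stood at 1.53 with BZP and 1.49 with MDBP. Sqle, the squalene epoxidase and a rate-controlling step, stood at 1.44 with BZP and 1.23 with MDBP. Ebp (0.063 ± 0.08) and Dhcr7 (0.37 ± 0.19), which act late in the pathway, were the members not called.

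The regulators around the pathway divided. Insig1, which holds SREBP back when sterols are plentiful and is itself an SREBP target, rose by 1.22 ± 0.096, and Stard4, a sterol carrier, by 1.06 ± 0.10 (0.57 with its probe sets averaged). Srebf1, the SREBP gene of lipid synthesis, rose by 0.87 ± 0.088 (0.54 averaged), while Srebf2, that of cholesterol synthesis, stood at 0.27 ± 0.10 and was not called (adjusted p = 0.0939). Abcg5 and Abcg8, the partners of a sterol exporter, stood at -0.80 ± 0.11 and -0.46 ± 0.091, both called, with means of 3.97 and 3.00 below the array medians. The cholesterol exporters Abca1 and Abcg1 moved in opposite directions. Abca1 stood at 0.36 ± 0.092, and its call was lost without the second BZP pair (adjusted p = 0.0508), without the third MDBP pair (0.0609) and with its probe sets averaged (0.0558). Abcg1 stood at -0.39 ± 0.12, and its call was lost without the third BZP pair or the first or the third MDBP pair (adjusted p = 0.114 to 0.135). Lcat, which esterifies plasma cholesterol, fell by 1.13 ± 0.096. In all, 4 of 15 genes of sterol sensing, uptake and efflux rose and 6 fell, the latter 3 without the third MDBP pair.

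Fatty acid synthesis genes rose in part and fatty acid oxidation genes fell. Of 29 genes of fatty acid and triglyceride synthesis, 16 rose and 4 fell, with a median of 0.277. With 1 value for each preparation 13 rose and 2 fell, and without the third MDBP pair 12 rose. Fasn, the fatty acid synthase, rose by 1.22 ± 0.17. Scd, the stearoyl-CoA desaturase, rose by 0.85 ± 0.13. Pnpla3, a lipid droplet lipase, rose by 1.26 ± 0.14 (0.78 with its probe sets averaged), and Acsl3, which activates fatty acids at lipid droplets, by 1.06 ± 0.12. Of the 26 genes of fatty acid oxidation and PPAR alpha targets, 20 fell and 0 rose, with a median of -0.917 for BZP and -0.638 for MDBP. Cyp4a1, a fatty acid hydroxylase and PPAR alpha target, fell by 2.05 ± 0.18 jointly. Its BZP changes were -2.14, -1.55 and -2.79, and its MDBP changes were -1.94, -1.61 and -2.27. Ehhadh, a peroxisomal enzyme of the same pathway, changed by -1.73 with BZP and -1.40 with MDBP. Angptl4, a secreted inhibitor of lipoprotein lipase, changed by -1.35 with BZP and -1.26 with MDBP, while Ppara itself stood at -0.033 ± 0.082. For 22 of the 26 genes the change was larger in size with BZP, against 7676 of 14217 genes in all, and 0 of the 26 were called for the difference.

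Bile acid synthesis and transport genes fell with both compounds. Of 23 measured genes, 18 fell and 2 rose (1 rose without the second BZP pair or the second or the third MDBP pair), and the list median was -0.745. Slc10a1, the sodium-dependent carrier that takes bile acids up from blood, showed the deepest fall of all genes, by 2.92 ± 0.17 (7.57-fold lower; adjusted p = 3.4e-08). Its log2 level was 7.01, 6.95 and 8.63 with BZP against 9.76, 10.52 and 10.88 in the paired controls, and 6.69, 7.20 and 8.44 with MDBP against 9.71, 10.81 and 10.76. Every treated array lay below every control of either compound. Cyp8b1, a hydroxylase needed for cholic acid, changed by -2.55 with BZP and -2.37 with MDBP. Its first pairs moved least, with -1.78 for BZP and -0.87 for MDBP. Cyp7a1, which catalyses the limiting step from cholesterol to bile acids, had log2 levels of 4.39, 3.78 and 6.41 with BZP against 5.38, 4.57 and 9.13 in the paired controls, and 3.89, 3.05 and 6.35 with MDBP against 5.21, 4.97 and 9.46. The control levels of the third pairs were far above those of the others, so treated and control arrays overlapped while each pair went down. Its BZP change of -1.50 was -0.892 without the third pair and was then not called (adjusted p = 0.096). The difference between compounds was 0.62 (95% interval -0.33 to 1.56).

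Transport genes of the list moved in both directions. Abcb11, the bile salt export pump, changed by -1.32 ± 0.12 with BZP and -1.72 ± 0.12 with MDBP (SE, n = 3 pairs each). The BZP changes were -1.43, -1.13 and -1.39, and the MDBP changes were -1.56, -1.89 and -1.71. The 2 sets did not overlap, as for 7.29% of all genes, and the difference of 0.40 (95% interval 0.035 to 0.77) did not pass after adjustment. Slco1a4, an organic anion uptake carrier, stood at -1.78 with BZP and -1.85 with MDBP, and Slco1a1, another, fell by 1.31 ± 0.22 jointly. The efflux pumps Abcc2 (0.67 ± 0.091) and Abcc4 (0.32 ± 0.095) were the members that rose, and the call of Abcc4 was lost without the second BZP pair or the second or the third MDBP pair (adjusted p = 0.0765 to 0.107). Nr0b2, the repressor known as SHP, and Nr1h4, the bile acid receptor FXR, changed by -0.56 ± 0.13 and -0.43 ± 0.067.

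Transcripts of drug-metabolising enzymes fell broadly. Of 23 constitutive cytochromes P450, 18 fell and 0 rose, with a median of -0.873. Cyp2c11, the main male-specific rat P450, had log2 levels of 5.74, 8.59 and 6.94 with BZP against 6.92, 9.91 and 8.70 in the paired controls, and 5.89, 7.23 and 6.86 with MDBP against 7.43, 9.29 and 8.56. Treated and control arrays did not overlap with MDBP but did with BZP, where the control levels spanned almost 3 log2 units, and each pair went down. Cyp2e1, which oxidises ethanol and small solvents, changed by -2.01 with BZP and -1.57 with MDBP. Among 17 genes of the xenobiotic receptors CAR and PXR and their targets, 12 fell and 1 rose. Nr1i3, which encodes CAR, fell by 1.70 ± 0.26, Cyp3a23-3a1 by 1.14 ± 0.17, Cyp3a18 by 1.47 ± 0.15 and Cyp2b3 by 1.00 ± 0.12. Of 29 conjugation and related enzymes, 21 fell and 2 rose. Sult2a6, a bile acid sulfotransferase, fell by 2.63 ± 0.25 and Glyat, a glycine N-acyltransferase, by 1.61 ± 0.16. Gstp1 (0.77 ± 0.12) and Sult1c2 (0.77 ± 0.09) were the members that rose. Maob, a monoamine oxidase, changed by -1.38 ± 0.10 with BZP and -0.95 ± 0.10 with MDBP, with a difference of -0.44 (95% interval -0.74 to -0.14).

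Cyp1a1 rose, while 0 of the 23 constitutive P450 genes did. Cyp1a1 and Cyp1a2 are targets of the aryl hydrocarbon receptor AHR, and methylenedioxyphenyl compounds as a class are known to bind P450 enzymes. The joint change of Cyp1a1 was 1.14 ± 0.29 (adjusted p = 0.0103, or 0.0507 without the first MDBP pair and 0.0656 with a trended, robust variance prior). Its log2 level was 10.15, 10.44 and 9.56 with BZP against 7.83, 9.60 and 10.14 in the paired controls, and 10.49, 11.24 and 10.89 with MDBP against 8.18, 10.17 and 9.98. Changes were 2.31, 0.84 and -0.58 with BZP and 2.30, 1.07 and 0.91 with MDBP. The first pairs agreed closely, and the third pairs, which share a preparation, pointed in opposite directions, with a difference of -1.49. Only the MDBP change was called (adjusted p = 0.0437; BZP 0.225), and that call was lost without any 1 of the 3 MDBP pairs (adjusted p = 0.095 to 0.275). The difference was -0.57 (95% interval -1.78 to 0.65). Cyp1a2 stood at -0.49 with BZP and 0.16 with MDBP, with neither called and a difference of -0.65 (95% interval -1.24 to -0.051). Of the 9 genes of the AHR list, 4 rose and 0 fell: Cyp1a1, Tiparp (0.55 ± 0.088), which restrains AHR, Ahr (0.44 ± 0.089, or 0.25 with its probe sets averaged) and Nqo1 (0.38 ± 0.086), a quinone reductase shared with NRF2.

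Nearly all genes of amino acid breakdown fell. Of 43 genes of amino acid breakdown and the urea cycle, 40 fell and 0 rose, 35 of them with BZP alone and 32 with MDBP alone, with a list median of -0.923. Bhmt, which remethylates homocysteine with betaine, had log2 levels of 5.96, 6.40 and 7.18 with BZP against 7.50, 9.57 and 10.07 in the paired controls, and 4.94, 6.08 and 7.21 with MDBP against 6.39, 8.84 and 10.05. Arrays treated with MDBP overlapped their controls since the control of the first pair lay below the treated array of the third, and each pair went down. Uroc1, of histidine breakdown, changed by -2.40 with BZP and -2.32 with MDBP. Ftcd, another enzyme of histidine breakdown, changed by -2.02 with BZP and -1.88 with MDBP. Otc, the urea cycle enzyme that makes citrulline, stood at -1.47 with BZP and -1.86 with MDBP, and Cps1, which feeds the cycle, at -0.31 ± 0.081 jointly, or -0.64 with its probe sets averaged. The call of Cps1 was lost without the second BZP pair (adjusted p = 0.0526). Asl (0.041 ± 0.074), Glul (-0.20 ± 0.085) and Tdo2 (-0.089 ± 0.063) were not called.

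Glucose and glycogen genes fell in part, with 13 of 25 lower and 1 higher. Fbp1, the gluconeogenic bisphosphatase, changed by -2.07 with BZP and -1.72 with MDBP. Gys2, the liver glycogen synthase, changed by -2.06 with BZP and -1.65 with MDBP, and Slc37a4, the glucose-6-phosphate carrier, by -1.37 with BZP and -1.60 with MDBP. Pck1, the entry enzyme of gluconeogenesis, fell by 0.42 ± 0.074. Irs2, an insulin signalling adaptor, was the member that rose, by 0.45 ± 0.099. Of 36 genes of oxidative phosphorylation, 18 fell and 0 rose. The falls were 12 without the second or the third MDBP pair and 9 with 1 value for each preparation. All 36 lay below 0, the deepest at -0.438. With BZP alone 12 fell and with MDBP alone 1. Over all genes 5.96% fell with BZP and 5.05% with MDBP, so nothing is read from the MDBP count. For the difference 0 were called, as over all probe sets, and its list median was -0.0896.

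**Figure D4:**
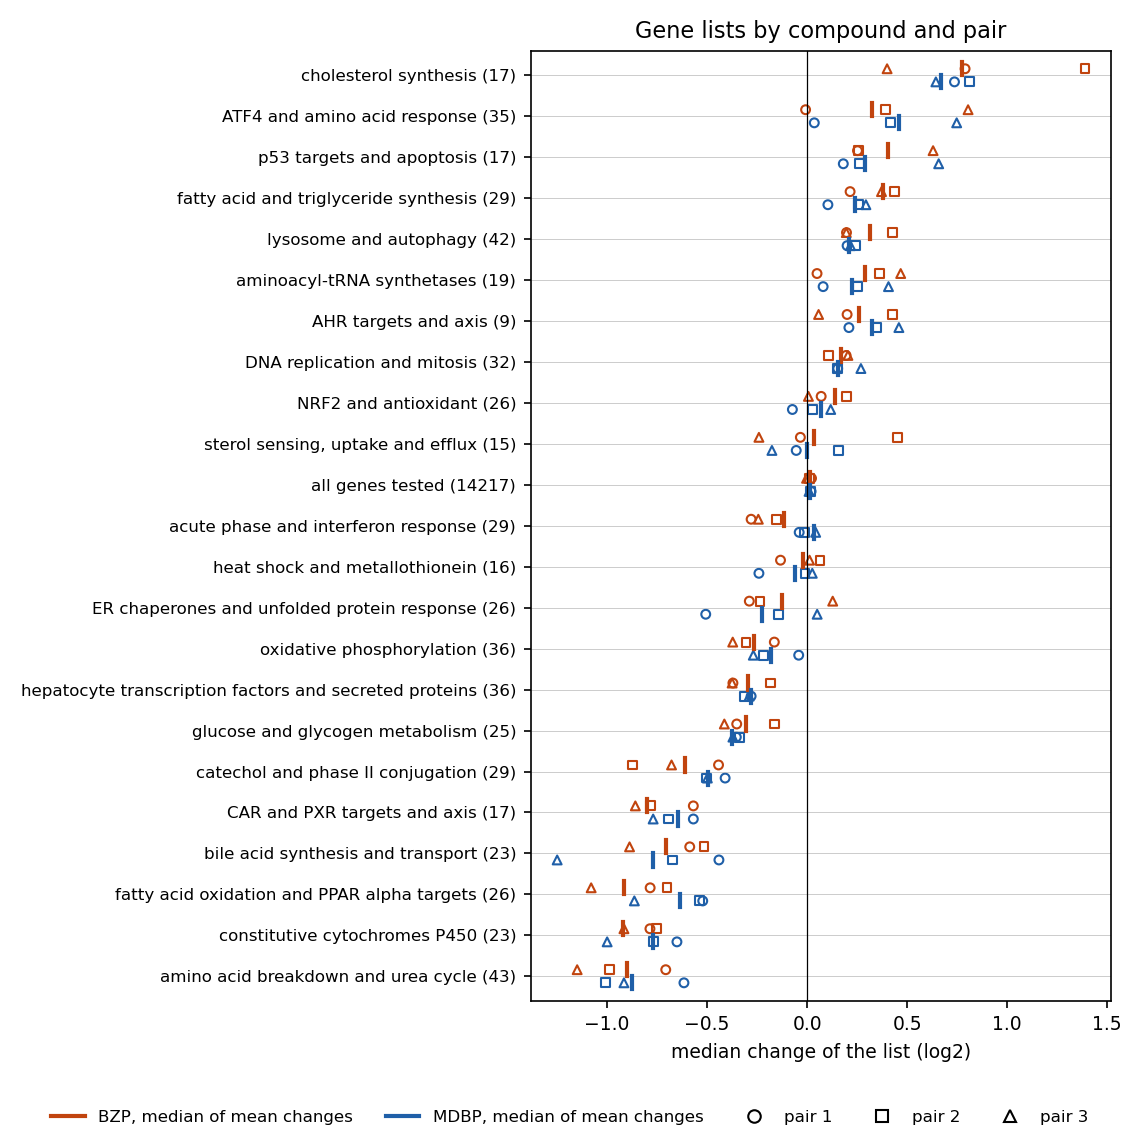
Median change (log2) of each gene list, with the median in each pair as an open symbol and the median of the mean changes as a bar, BZP in orange and MDBP in blue, and the number of measured genes in brackets. Cholesterol synthesis lies highest with both compounds, the lowest bars are constitutive cytochromes P450 with BZP (-0.923) and amino acid breakdown with MDBP (-0.877), and the ATF4 list runs from near 0 in the first pairs to 0.805 (BZP) and 0.748 (MDBP) in the third.

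Genes of the ATF4 and amino acid response rose to a degree that varied with the pair. Of 35 measured genes, 19 rose and 5 fell in the joint change, with a median of 0.43. Over all genes 14.1% rose and 9.74% fell. The rises were 14 without the third pair of either compound or with 1 value for each preparation, and 22 without the first MDBP pair. The falls were 3 without the first pair of either compound. The list median was -0.00762, 0.39 and 0.805 in the BZP pairs and 0.0359, 0.417 and 0.748 in the MDBP pairs. The first pairs thus barely moved and the third moved most with both compounds. As the first pairs of both compounds share a preparation, and the third pairs another, the 2 compounds do not repeat this order independently. Psat1, an enzyme of serine synthesis, had log2 levels of 8.43, 8.12 and 8.86 with BZP against 8.18, 6.67 and 6.59 in the paired controls, and 8.38, 8.55 and 8.95 with MDBP against 7.98, 7.30 and 6.73. The treated arrays differed little between pairs, and the controls were higher in the first pair than in the others. Asns, the asparagine synthetase, showed the same order, with changes of 0.20, 1.02 and 1.71 for BZP and 0.45, 1.19 and 1.83 for MDBP. Without the third pair, the BZP change of Asns was 0.611 (adjusted p = 0.24) and its MDBP change 0.819 (adjusted p = 0.154). Mthfd2, of mitochondrial folate metabolism, rose by 1.21 ± 0.18 jointly, Chac1, which degrades glutathione, by 1.05 ± 0.18, and Atf3, a stress transcription factor, by 0.94 ± 0.20. Atf4 itself stood at 0.51 ± 0.097 (adjusted p = 0.00167). Trib3, a pseudokinase induced by ATF4, stood at 0.54 ± 0.16 (adjusted p = 0.0306), and its call was lost without the second or the third pair of either compound (adjusted p = 0.0614 to 0.164). Ddit3, which encodes CHOP, was not called (0.31 ± 0.16; adjusted p = 0.199).

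The sequences upstream of these genes were read for the element at which ATF4 binds with C/EBP proteins. The motif TGATGNAA was searched on both strands in promoters from RefSeq (GRCr8), which run from 250 bases before to 50 after the gene start. It was found in 3.98% of 33469 promoters. Of the 35 genes of the list, 30 had a promoter and 7 held the motif. Among the 19 genes called higher, 17 had a promoter and 5 held it. The list was drawn up as an ATF4 response, so nothing is read from these counts. The 5 are shown because they belong to the group whose rise followed the pair, each as 30 bases in the direction of transcription with the motif in capitals, TTNCATCA where it lies on the other strand. They lie at chr3:126795953-126795982 (plus strand) for Chac1, chr1:190645938-190645967 (minus) for Nupr1, chr14:98761779-98761808 (minus) for Slc1a4, chr12:11664447-11664476 (plus) for Slc7a1 and chr3:161275536-161275565 (minus) for Trib3.
Chac1: cttctccgccgTTGCATCActcctgctagg
Nupr1: aaaaggccagaTTGCATCAgacagggcttg
Slc1a4: cgcctccagcgTTGCATCAtccagccagca
Slc7a1: cggcgcgcggcTGATGAAAccggctcggat
Trib3: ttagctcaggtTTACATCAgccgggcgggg
The form TTGCATCA was shared by Chac1, Nupr1 and Slc1a4. The motif started 167 bases before the gene start in Chac1, 55 in Nupr1, 235 in Slc1a4, 30 in Slc7a1 and 21 in Trib3. These are matches of letters and not measured binding sites. In the first, second and the third pairs, the changes of Chac1 were 0.02, 1.12 and 1.48 with BZP and 0.28, 1.55 and 1.86 with MDBP. Those of Slc7a1 (joint change 0.83 ± 0.19, or 0.50 with its probe sets averaged), a carrier of cationic amino acids, were -0.019, 0.85 and 1.73 with BZP and 0.036, 0.69 and 1.70 with MDBP. Those of Slc1a4, a carrier of neutral amino acids, were 0.35, 1.12 and 1.23 with BZP and 0.31, 0.66 and 1.44 with MDBP. All 3 moved least in the first pair with each compound. Nupr1, a small stress-response protein, was called narrowly (adjusted p = 0.04996) and not without the third pair of either compound (adjusted p = 0.236 and 0.249) or the second MDBP pair (0.0774).

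Other stress programmes moved little or in part. Of 19 aminoacyl-tRNA synthetases, which charge tRNAs with amino acids, 10 rose and 0 fell, or 6 without the third MDBP pair, and Sars1 rose most, by 0.60 ± 0.093. Of 26 genes of ER chaperones and the unfolded protein response, 7 fell and 2 rose. Without the first MDBP pair 2 fell, without the first BZP pair 3 and without the second 4, while 10 fell without the third pair of either. The rises were 0 without the third pair of either and 1 without the second pair of either. Hspa5, the main ER chaperone, was not called (-0.22 ± 0.12; adjusted p = 0.229). Among 26 NRF2 and antioxidant genes, 8 rose (5 without the third MDBP pair) and 5 fell (2 without the first or the third BZP pair or the third MDBP pair, 3 without the first or second MDBP pair). Akr1b8, an aldo-keto reductase, stood at 1.13 with BZP and 0.57 with MDBP, and Hmox1, the haem oxygenase, at 0.32 ± 0.11 (adjusted p = 0.0665). Of 17 p53 targets and apoptosis genes, 11 rose and 2 fell. Mdm2, the ubiquitin ligase that restrains p53, rose by 0.81 ± 0.078 and changed by 0.82, 0.78 and 1.12 with BZP and 0.66, 0.53 and 0.93 with MDBP. Cdkn1a, another p53 target, was not called (0.12 ± 0.07), but was with its probe sets averaged (0.27; adjusted p = 0.0309). In the heat shock list, Hspa1a changed by -0.98 ± 0.19 and Hspb8 by 0.45 ± 0.088, and 13 of 16 members were not called (1 rose, or 2 without the third BZP pair).

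Lysosome and autophagy genes rose beyond Gpnmb and Rragd. Of 42 measured genes, 23 rose (16 with 1 value for each preparation), with a median of 0.255, and 4 fell (2 without the first BZP or the second MDBP pair). Over all genes 14.1% rose and 9.74% fell. Flcn, a folliculin that acts on the Rag GTPases, changed by 1.07 with BZP and 0.85 with MDBP, and Fnip1, its partner, rose by 0.86 ± 0.14 jointly. Rragc, another Rag GTPase, rose by 0.56 ± 0.08. Npc2, which carries cholesterol out of lysosomes, rose by 0.77 ± 0.062, and Pla2g15, a lysosomal phospholipase, by 0.70 ± 0.095. The transcription factors of the group were not called, with Tfeb at -0.21 ± 0.079 (called without the second BZP pair, adjusted p = 0.0389) and Tfe3 at 0.19 ± 0.081. Mitf, of the same family, stood at 0.65 with BZP and -0.063 with MDBP, and only its BZP change was called (adjusted p = 0.0302). That call was lost without the second BZP pair (adjusted p = 0.0932), without the third (0.344) and with the probe sets averaged (0.0721). The joint change of Mitf was called without the first BZP pair (0.43; adjusted p = 0.0225). The difference of 0.71 (95% interval 0.18 to 1.24) did not pass after adjustment.

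Transcripts of hepatocyte secreted proteins fell unevenly, and cell type markers were followed beside them. Of 36 hepatocyte transcription factors and secreted proteins, 21 fell and 2 rose, or 13 fell with 1 value for each preparation. Mttp, which loads lipid onto apolipoprotein B, fell by 1.41 ± 0.12 and Apob by 0.98 ± 0.078 (-0.62 with its probe sets averaged). Albumin (Alb) stood at -0.0073 ± 0.055, with levels of 14.04 to 14.08 where the highest value on any array was 14.1. Ahsg, a secreted glycoprotein, rose by 0.47 ± 0.077. The 8 hepatocyte markers averaged 12.1 to 12.7 in all 4 groups, and 5 of them fell (1 with 1 value for each preparation), with a median of -0.275. Markers of other liver cells were lower in level: Kupffer cells and leukocytes averaged 4.98 to 6.53 over 14 genes, of which 8 fell and 1 rose (2 rose without the first BZP pair). Of 14 stellate cell markers 4 fell (2 without the third BZP or the first MDBP pair), and of 11 endothelial markers 2 fell (1 without any pair but the third BZP pair). Of 9 cholangiocyte markers 1, Onecut1, rose. Over all genes 9.74% fell and 14.1% rose, and nothing is read from the small stellate, endothelial and cholangiocyte counts. Fewer cells of a type and less RNA per cell cannot be told apart in bulk samples, and the part of these markers in the other results was not tested.

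Genes of DNA replication rose in part, with 12 of 32 higher (9 with 1 value for each preparation) and 1 lower (2 without the first MDBP pair). Mcm4, a subunit of the replicative helicase, changed by 0.95 with BZP and 0.85 with MDBP. Mcm6, another subunit, had log2 levels of 6.47, 5.87 and 5.83 with BZP against 5.13, 4.65 and 4.66 in the paired controls, and 5.51, 5.32 and 5.72 with MDBP against 4.93, 4.94 and 5.01. All treated arrays lay above their controls. The changes were 1.35, 1.22 and 1.18 with BZP and 0.58, 0.38 and 0.71 with MDBP, so BZP exceeded MDBP in every pair. Mcm6 is among the largest differences, which were picked from genes whose sets did not overlap, so that order was required by the choice. The difference of 0.69 (95% interval 0.34 to 1.04) did not pass after adjustment, and the other subunits Mcm2, Mcm3, Mcm5 and Mcm7 had differences from -0.092 to 0.16.

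Interferon-response genes were among the largest differences between the compounds. These genes were singled out after their values were seen, and 0 passed the adjusted test. Isg15, a ubiquitin-like protein made in response to interferon, had log2 levels of 6.48, 8.71 and 6.38 with BZP against 8.48, 9.56 and 7.85 in the paired controls, and 7.32, 8.45 and 7.78 with MDBP against 7.56, 8.06 and 7.73. Its changes were -2.00, -0.85 and -1.46 with BZP and -0.23, 0.39 and 0.049 with MDBP. Every BZP pair went down, and the 2 sets did not overlap, although treated BZP arrays overlapped their controls. The difference was -1.50 (95% interval -2.36 to -0.65), and within the 2 preparations that hold both compounds it was -1.77 and -1.51. Sets that do not overlap fix the sign within each preparation, so these 2 values are no separate support. Irf9, a subunit of the factor that carries the type I interferon signal, had changes of -0.73, -0.46 and -0.92 with BZP and 0.0059, -0.039 and 0.14 with MDBP. Its difference was -0.74 (95% interval -1.06 to -0.42). For Mx2, an interferon-induced GTPase, they were -1.50, -1.92 and -0.85 with BZP and -0.086, -0.52 and 0.20 with MDBP. The difference of Mx2 was -1.29 (95% interval -2.12 to -0.45), or -0.59 with its probe sets averaged. For Ifit3, which acts on viral RNA with its partners, they were -0.35, -0.48 and -0.042 with BZP and 0.47, 1.40 and 1.09 with MDBP, so that it differed in sign between the compounds in every pair.

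Not all genes of this response behaved so. Of the 15 measured interferon-response members of the acute phase and interferon list, 14 had a lower change with BZP. Their median difference was -0.506, against 0.00225 over all genes. The sets of changes did not overlap for 6 of them, as for 7.29% of all genes. These members were set apart with their values seen, so no enrichment is read from the counts. With BZP alone 5 of the 15 were called lower (5.96% of all genes), namely Isg15, Mx2, Irf9, Oas1a and Irf7. Irf7 was not called without the first (adjusted p = 0.175) or the third BZP pair (0.0826). With MDBP alone 1, Ifit3, was called higher (4.68% of all genes), and not without the second (adjusted p = 0.249) or the third MDBP pair (0.19). Tap1, of antigen processing, stood at 0.37 with BZP and 0.44 with MDBP, and Irf1, an early interferon-induced factor, at 0.06 with BZP and 0.042 with MDBP. Usp18, which removes Isg15 from proteins, had changes of -2.21, -1.18 and -0.75 with BZP and -0.07, -0.51 and -0.23 with MDBP. Rtp4, another interferon-induced gene, had changes of -1.56, -0.95 and -0.83 with BZP and 0.32, -0.15 and -0.16 with MDBP. Control levels of Isg15 ran from 7.56 to 9.56 over the 6 pairs, and in 3 of 3 cases the BZP control lay above the MDBP control of the same number. The Kupffer cell list, whose cells also respond to interferon, had a median change of -0.242 with BZP and -0.446 with MDBP, and its part was not tested.

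**Figure D5:**
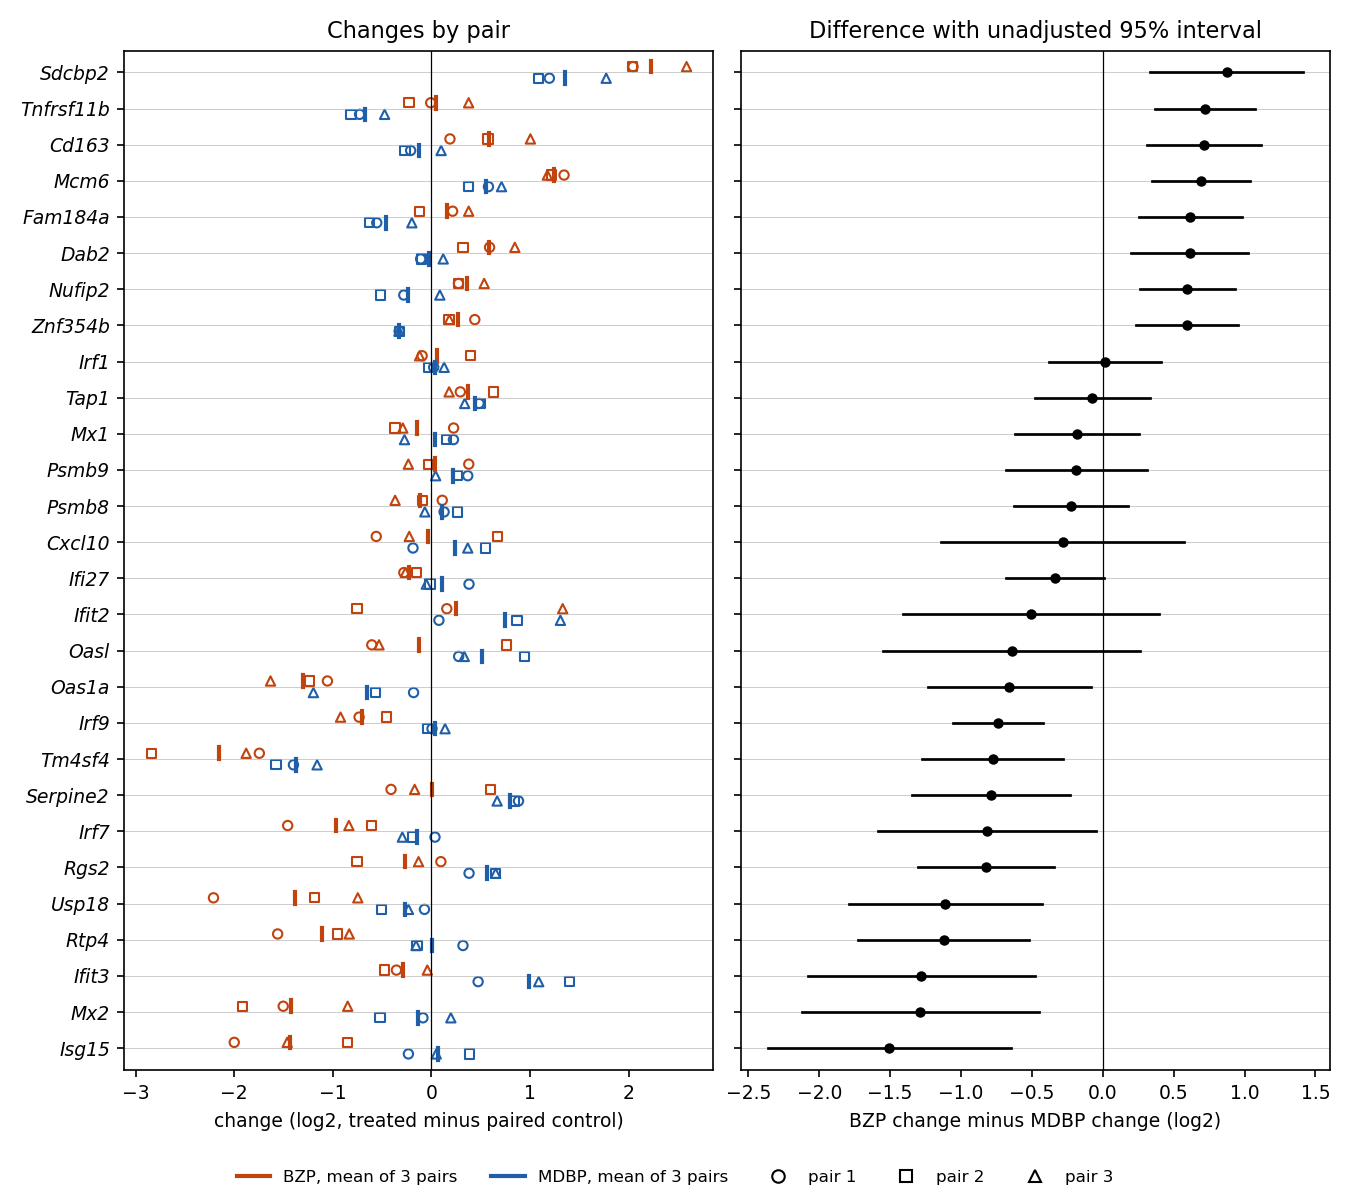
Left, changes by pair (log2, treated minus paired control) of the interferon-response members and of the 8 largest differences in each direction; right, BZP change minus MDBP change with its unadjusted 95% interval. BZP lies left of MDBP for Isg15, Mx2, Ifit3, Rtp4, Usp18 and Irf9, and right of it for Sdcbp2, Mcm6 and Cd163, while 0 of these genes passed the adjusted test of the difference. The 8 largest differences in each direction were picked from genes whose sets did not overlap, so the choice required their separation.

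Other differences lay in genes of varied function, and again 0 passed the adjusted test. Sdcbp2 changed by 2.05, 2.04 and 2.59 with BZP and by 1.20, 1.09 and 1.77 with MDBP, a difference of 0.87 (95% interval 0.34 to 1.41). Tm4sf4, a tetraspanin-like membrane protein of liver, had changes of -1.75, -2.84 and -1.88 with BZP and -1.40, -1.58 and -1.16 with MDBP, a difference of -0.78 (95% interval -1.27 to -0.28). Cd163, a scavenger receptor of macrophages, had changes of 0.19, 0.57 and 1.00 with BZP and -0.21, -0.27 and 0.098 with MDBP. Its BZP change was called (adjusted p = 0.0104) and not without the third BZP pair (adjusted p = 0.152). Tnfrsf11b, the decoy receptor osteoprotegerin, stood at 0.048 with BZP and -0.67 with MDBP, at levels of 2.84 to 3.72, near the bottom of the range of the arrays. In all, 67 of 14217 genes had sets of changes that did not overlap and an unadjusted p under 0.01 in limma. Of these, 25 were higher and 42 lower with BZP. Over all probe sets only 3.7% had an unadjusted p under 0.05 for the difference, so nothing is read from this count or its split.

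Against the phenylpiperazines TFMPP and MeOPP of the same series, the benzyl compounds did not stand apart at the threshold. For the mean of BZP and MDBP minus that of the phenyl compounds, limma called 0 of 31042 probe sets (0%), with 2421 (7.8%) at an unadjusted p under 0.05 and a smallest adjusted p of 0.0545. With a trended, robust variance prior 8 were called, and without the first or the third BZP pair 1. The phenyl compounds were given at 35 µM (TFMPP) and 522 µM (MeOPP), also as the EC20, and have control arrays of their own. Of the 3386 genes called for the benzyl compounds, 3231 (95.4%) had the same sign in the mean of the phenyl compounds. The same share was not counted over all genes, so nothing is read from it. Across genes the benzyl and phenyl mean changes correlated at r = 0.837. That is close to the 0.857 between BZP and MDBP, whose changes are means over fewer pairs.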

How the data were processed

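The deposited values are log2 expression values of Affymetrix rat arrays, made by the authors with RMA per the submitters' processing notes, with no version named there. Of 31099 probe sets, 57 control probe sets were left out of the tests. Symbols came from the platform annotation table: 20826 probe sets had 1 symbol, 436 several and 9780 none. Each gene took the probe set of highest mean over the arrays, and of 4525 genes with several probe sets 20 had some called in opposite directions. Of 630 genes on the lists 558 were measured.

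Differences were tested with limma 3.58.1 in R 4.3.3 on all 24 arrays with 12 pair terms and 4 drug terms, 8 residual degrees of freedom and Benjamini-Hochberg adjustment. Pair terms were used because each control title names its treated sample. Deviations of treated and control arrays of a pair from their group means correlated at 0.612 to 0.778 across genes in the 6 pairs. Preparations were inferred from correlations among the control arrays, with the number of sets given as 5. The fit was tested on simulated data, where it recovered 74% of planted joint changes of 0.5 and 98% of those of 1 on the log2 scale. The genes named are the 12 largest rises and 12 largest falls called for the joint change with 1 sign in all 6 pairs, up to 4 called members of each list with the largest joint change, and 27 fixed genes. For the difference between compounds 0 genes met the rule, so the largest differences were picked after their values were seen, from genes whose BZP and MDBP changes did not overlap. The interferon-response members, the genes with the promoter motif and any other list member named were also picked with their values seen. The compounds and the gene lists were chosen with earlier results of these data known. Precision is limited by the number of arrays. Alternatives were no pair terms, the 12 arrays alone, a minimum level, repeated quantile normalization, another variance prior, each pair left out, preparation as a block or as the unit, and the probe sets of a gene averaged.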

Additional observations from a re-analysis of the deposited data

Results flagged for a closer look

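Znf354b, a zinc finger protein, had opposite signs with the 2 compounds, up in every BZP pair and down in every MDBP pair, with a BZP change minus MDBP change of 0.59 on the log2 scale. Ifit3, an interferon-response gene, ran the other way, down in every BZP pair and up in every MDBP pair, with a difference of -1.28. The difference itself was tested with limma for both genes and did not pass after adjustment (adjusted p = 1 for each, n = 3 pairs for each compound). Among all genes, 1.12% had such opposite signs in all pairs.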

How the results depend on the processing

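Without the replicate block, which here is the pairing of each treated array with its named control, 774 probe sets were called for the joint change, 38 for BZP, 28 for MDBP and 0 for BZP minus MDBP. With only the 12 arrays of the benzyl compounds, BZP called 1823 and MDBP 1287. With 1 value for each preparation the joint change called 3031. With a pair left out, the joint count ran from 3739 to 5276, the BZP count from 1461 to 3053, the MDBP count from 821 to 2530 and the benzyl minus phenyl count from 0 to 1. That last count was 8 with a trended, robust variance prior. The count for BZP minus MDBP was 0 under every alternative run, including the replicate block on the pair changes, in which numbers shared between compounds were treated as pairs. The correlation of the 2 compounds across genes ran from 0.767 to 0.861 with a pair left out. Of 118 named genes called for the joint change, 54 were still called without the pairing and 109 to 114 with a pair left out, with 0 changes of sign. With 3 pairs for each compound, the test recovered 2% of simulated differences of 0.5 and 62% of those of 1. The spreads were shuffled among genes in the simulation, so these shares do not hold for each gene. The largest measured difference, 1.51 in size, did not pass. Effects of the bridge under 2-fold could mostly not be detected here, and larger ones could be missed too.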
